A study of Homo sapiens with 6 samples.

Results

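The genes described here encode nucleoporins, the proteins of the nuclear pore, and the receptors that carry cargo through it, together with the GTPase RAN. They were chosen by symbol: the NUP genes, the karyopherin genes KPNA, KPNB, IPO, TNPO and XPO, and RANBP2, TPR, SEH1L, AAAS, NDC1, RAN and CSE1L. Of the 16834 genes in the deposited table, 52 met this rule, namely 27 nucleoporins, 24 karyopherins and RAN. All 52 are protein coding in GENCODE 44, and KPNA7 and NUP210L, which the rule would also take, are not among the genes analysed here.

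The 6 libraries came from HEK293-T Flp-In cells, a human embryonic kidney line with a recombination site that takes up a single copy of an inserted construct. All 6, Flag-IPs and HA-IPs alike, were made from asynchronous cells that stably carried the ccTaggedRP construct under the CAG promoter and were grown in hygromycin. From 1 bicistronic transcript the construct gives the ribosomal protein RPL10a in 2 tagged forms. By design, Flag-RPL10a-hCdt is degraded from late S phase to the end of mitosis, and HA-RPL10a-hGem from late G1 to early S phase. RNA bound to the Flag form was recovered in 3 Flag-IPs and RNA bound to the HA form in 3 HA-IPs, with no treatment in either group. The comparison of HA-IPs with Flag-IPs was meant to address which mRNAs are carried by ribosomes tagged late rather than early in the cell cycle. Tag, degron and antibody differed together with the phase, and the 6 libraries include no input or untagged IP. A difference between the groups can therefore not be assigned to the phase alone. The labels do not say that the 3 libraries of a group are separate cultures, so p-values measure the spread between these libraries, which may be technical. Because each IP samples a mixed culture, more cells of a phase and more RNA per cell cannot be told apart.

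A nuclear pore complex is a ring of stacked scaffolds set in the nuclear envelope. Its outer ring (the Y complex) and inner ring form the scaffold, nucleoporins rich in phenylalanine-glycine (FG) repeats fill the channel, filaments reach into the cytoplasm, and a basket extends into the nucleus. Importins bind cargo in the cytoplasm and release it in the nucleus when they meet RAN bound to GTP, whereas exportins bind cargo together with RAN-GTP and release it in the cytoplasm. In dividing human cells the envelope and the pores come apart in mitosis and are rebuilt at its end, and importins and RAN then also act on spindle assembly.

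The libraries held 23174532 to 44134833 reads on the listed genes, and single members held 217 to 120787 reads in a library. Values are normalized counts, that is, read counts divided by a size factor per library, and they say nothing about absolute RNA amounts. Genes of heart muscle, which the line should not express, were higher in the Flag-IPs for all 29 of the 36 listed markers that were measured, with a median log2 fold change of −4.11. Their summed level was 0.339 to 0.726% of counts in the Flag-IPs and 0.0076 to 0.0662% in the HA-IPs, and no marker was at 0 in every HA-IP. Of the fibroblast markers 7 of 8 and of the endothelial markers 5 of 8 were also higher in the Flag-IPs. The part of these transcripts in the results below was not tested. All 6 markers of an epithelial kidney line were measured, with KRT8 at 9904 to 11240 normalized counts, and of these EPCAM was higher in the HA-IPs (log2 fold change 0.34) and PAX2 higher in the Flag-IPs (−0.79). Of 4 measured markers of the mature nephron, 1 was higher in the HA-IPs and 2 were lower.

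Short stretches of promoter are shown for the 3 members with the smallest p and for KPNA3, the one member that was higher in the Flag-IPs, because their differences are described next. Each stretch was picked as the 30 bases before the start with the most kinds of searched motif. That it holds a match is therefore set by the choice and is no result. The sequences are from RefSeq (GRCh38.p14) and run 5′ to 3′ on the strand of the gene. Capitals mark the matches: TTTGAA or its reverse complement TTCAAA (the cell cycle homology region, CHR), CCAAT (the CCAAT box) and TTCCCGC (an E2F motif).
KPNA2, chr17:68035636-68035665, plus strand, 99 to 70 bases before the RefSeq start: TTCAAAtccaCCAATgggcacacagcttag
NUP205, chr7:135557752-135557781, plus strand, 165 to 136 bases before the start: TTTGAAtgggaataatcCCAATgaaaattg
NUP160, chr11:47848511-47848540, minus strand, 190 to 161 bases before one of its RefSeq starts: TTCCCGCagatagagtctgcctcccctgcc
KPNA3, chr13:49792683-49792712, minus strand, 30 to 1 bases before the start: cagcaccgTTCCCGCcccacccggcccggc
The KPNA2 and NUP160 stretches lie within the gene as GENCODE 44 places it, because the starts of the annotations differ.

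Of the 52 members, 16 were higher in the HA-IPs (30.8%), 1 was higher in the Flag-IPs and 35 did not pass the test. Over all 16834 genes, 5.79% were higher in the HA-IPs and 7.10% higher in the Flag-IPs. The test was limma on log2(normalized counts + 1), two-sided, with the Benjamini-Hochberg adjustment over all genes and an adjusted p of at most 0.05. The log2 fold changes, always HA-IPs over Flag-IPs on that scale, ran from −0.26 to 0.30 with a median of 0.13, against a median of −0.0049 over all genes. They were above 0 for 45 members and below 0 for 7. The members' median level was 5861 normalized counts, against 473 over all genes, so these comparisons were not matched for level. Medians at like levels are given below. Under at least 1 alternative the sign changed in 10 of the 52, and in 0 of the 17 called members. In 26 members all 3 HA-IPs lay above all 3 Flag-IPs, against 16.1% of all genes, and in 1 member all lay below, also against 16.1%. These shares were not matched for level either. The members took 1.61 to 1.66% of all counts in the Flag-IPs and 1.74 to 1.79% in the HA-IPs. The counts of calls moved with single libraries: without Flag-IP replicate 2 only 3 members (KPNA2, NUP160 and NUP205) were called higher in the HA-IPs (0.612% of all genes), without HA-IP replicate 1 or replicate 3 there were 7 (1.34% and 1.89%), and without Flag-IP replicate 3 there were 21 (9.21%). Without Flag-IP replicate 1 or HA-IP replicate 2 they numbered 17 and 11 (5.19% and 1.59%). KPNA2, NUP160 and NUP205 kept their call in all 6 fits that left out a library, and the other called members in 1 to 5 of them. Limma with no variance trend called 0 members in either direction, and called 6 of all genes higher in the HA-IPs (0.0356%) and 182 lower. At an unadjusted p under 0.05 that fit had 22 members higher in the HA-IPs and 1 lower, against 10.4% and 12.6% of all genes. By contrast, edgeR and DESeq2 on the recovered reads called 17 and 19 higher in the HA-IPs. The shares of all genes called higher in the HA-IPs, then lower, were 5.35% and 7.31% with edgeR, 6.20% and 7.31% with DESeq2, 2.80% and 9.36% with the same total per library, 4.18% and 5.96% with quantile normalization, 6.37% and 8.10% with the trends of GC content and length removed, and 4.47% and 5.41% with the replicate number as a block.

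**Figure D1:**
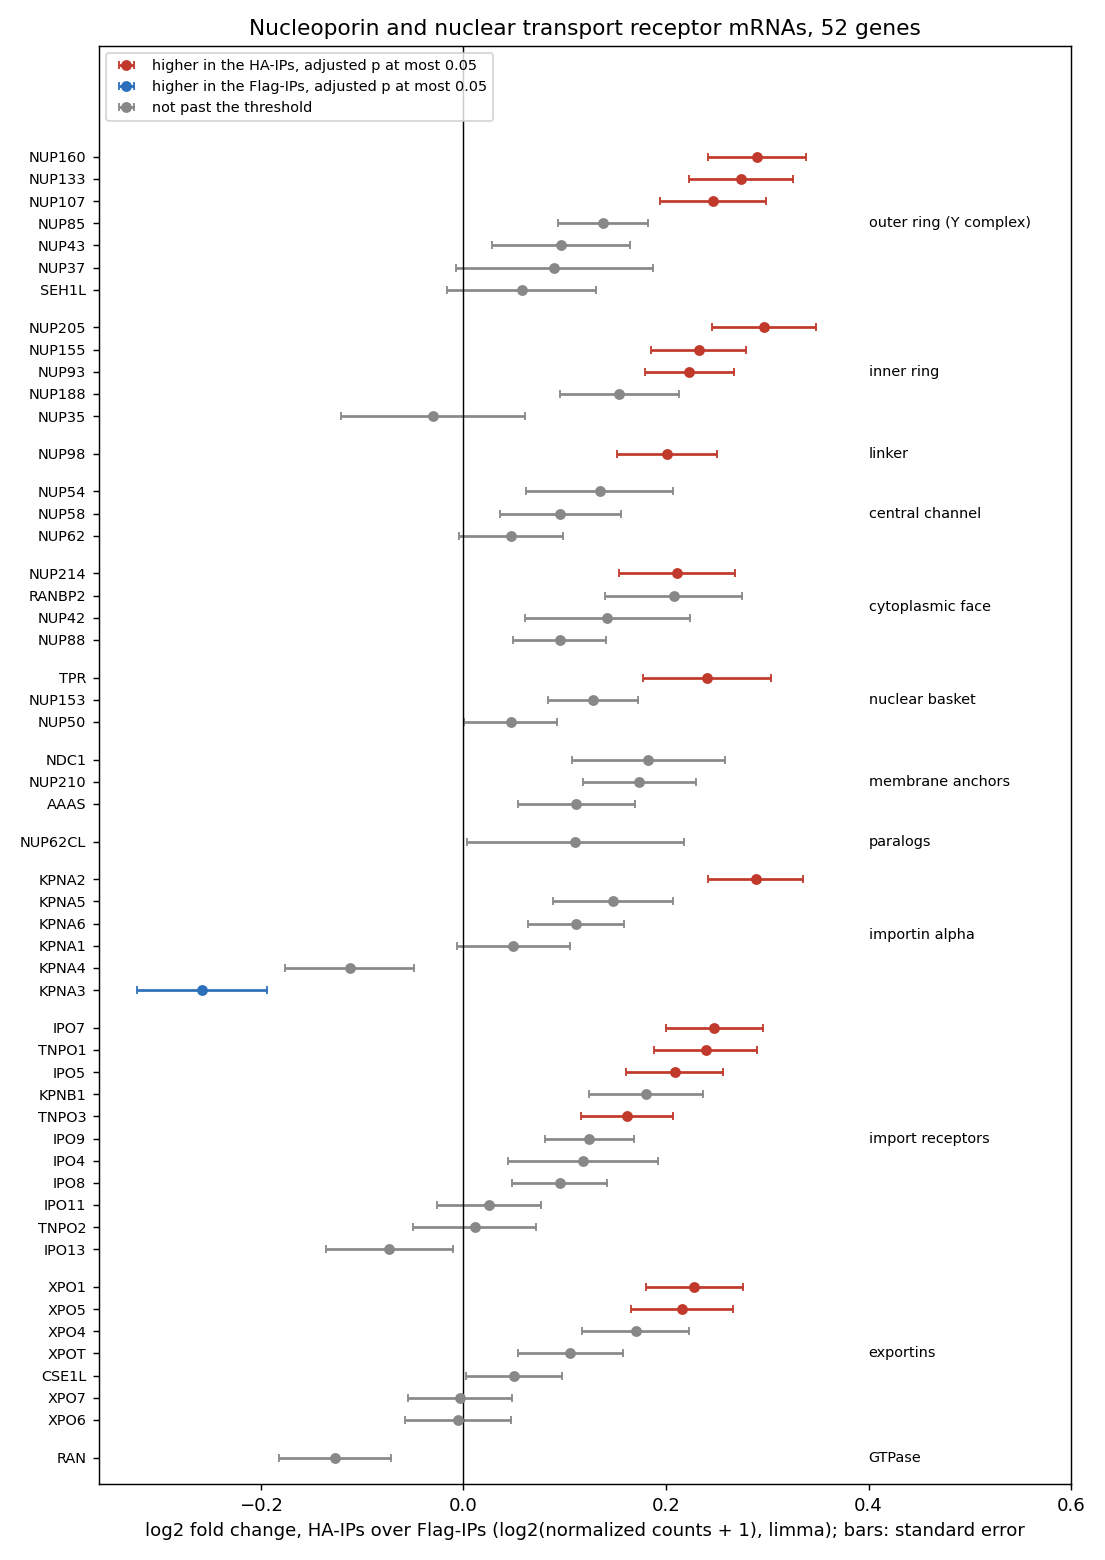
Log2 fold change of HA-IPs over Flag-IPs (x axis, log2(normalized counts + 1), limma) for each of the 52 members, grouped by role. Points are estimates from 3 libraries per group and bars are standard errors, with red for the 16 members higher in the HA-IPs, blue for KPNA3 and grey for the rest.

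In the outer ring, 3 of 7 members were higher in the HA-IPs and none higher in the Flag-IPs, with a median log2 fold change of 0.14. NUP160, a scaffold protein of the Y complex (chr11:47778087-47848555), stood at 6998, 6856 and 7405 normalized counts in the Flag-IPs, against 8884, 8434 and 8667 in the HA-IPs. The groups did not overlap, the log2 fold change was 0.29 ± 0.048 (SE, n = 3 per group) and the adjusted p was 0.0038. NUP133, which anchors the stem of the Y complex, stood at 13807, 12844 and 14340 in the Flag-IPs, against 16815, 16127 and 16587 in the HA-IPs. It was higher in every HA-IP, by 0.27 ± 0.051 on the log2 scale (adjusted p = 0.0069). NUP107, its partner in the stem, held 8204, 8181 and 8653 in the Flag-IPs, against 9506, 9675 and 10541 in the HA-IPs, a log2 fold change of 0.25 ± 0.052 (adjusted p = 0.012). These 3 have the longest transcripts of the group, at 5208 nucleotides (NUP133) or more, against at most 3831 (NUP43) in the other 4. They also have the highest levels, with means of 7874 normalized counts (NUP160) or more, against at most 4130 (NUP85). NUP85, NUP43, NUP37 and SEH1L had log2 fold changes of 0.14, 0.096, 0.090 and 0.057 and did not pass, and the groups overlapped in the last 3. With the trends of GC content and length removed, NUP160, NUP133 and NUP107 stayed called and NUP85 passed as well (adjusted p = 0.042).

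The inner ring had a median log2 fold change of 0.22, the highest of the role groups except without HA-IP replicate 1, where the cytoplasmic face was higher, and 3 of its 5 members were higher in the HA-IPs. NUP205, a large scaffold protein (chr7:135557917-135648757), had 17219, 17063 and 18935 normalized counts in the Flag-IPs, against 21863, 21476 and 21969 in the HA-IPs. Its log2 fold change of 0.30 ± 0.051 was the largest among the members (adjusted p = 0.0047), and all HA-IPs lay above all Flag-IPs. NUP93, which links the inner ring to the channel, had 7228, 7154 and 7423 in the Flag-IPs against 8646, 8372 and 8432 in the HA-IPs (log2 fold change 0.22 ± 0.044, adjusted p = 0.0087). NUP155, which contacts the membrane, had 13311, 12733 and 13714 against 15694, 15249 and 15744 (0.23 ± 0.047, adjusted p = 0.0094). Neither gene's groups overlapped. NUP188, the paralog of NUP205, had a log2 fold change of 0.15 (adjusted p = 0.11), and NUP35 one of −0.030 with overlapping groups (adjusted p = 0.87).

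NUP98, 1 of whose protein products carries FG repeats and joins scaffold and channel, was higher in the HA-IPs by 0.20 ± 0.049 on the log2 scale (adjusted p = 0.022). It stood at 8005 ± 401 normalized counts in the Flag-IPs, against 9197 ± 155 in the HA-IPs (mean ± SD, n = 3). Its transcript encodes more than 1 protein, so gene counts cannot assign the difference to the FG product. None of the 3 central channel genes passed the test: NUP54, NUP58 and NUP62 had log2 fold changes of 0.13, 0.096 and 0.047, and the groups overlapped in all 3. On the cytoplasmic face 1 of 4 passed. NUP214, a docking site for exportins, was higher in the HA-IPs by 0.21 ± 0.058 (adjusted p = 0.035), a call that held in 1 of the 6 fits that left out a library. RANBP2, the large filament protein that binds RAN, had a fold change of the same size, 0.21 ± 0.068, but its groups overlapped, at 19693, 19955 and 23728 normalized counts in the Flag-IPs against 23612, 24656 and 24666 in the HA-IPs (adjusted p = 0.068). The near copies RGPD8 and RGPD3 had means of 451 and 30.1 normalized counts, so reads shared with them may affect its value. NUP88 had the lowest log2 fold change of the cytoplasmic face, 0.095, and its exons overlap those of RABEP1 on the opposite strand by up to 3148 bases.

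In the nuclear basket, TPR, which forms the basket's filaments, was higher in the HA-IPs by 0.24 ± 0.063 (adjusted p = 0.030), at 17676 ± 1342 normalized counts in the Flag-IPs against 20865 ± 1202 in the HA-IPs. NUP153 (0.13, adjusted p = 0.085) and NUP50 (0.047, adjusted p = 0.56) did not pass. Among the 3 membrane anchors NDC1 and NUP210, both membrane-spanning, had log2 fold changes of 0.18 and 0.17 and AAAS 0.11, and none passed, at adjusted p of 0.14, 0.063 and 0.24. NUP210 passed with DESeq2 (0.031), NDC1 with the replicate number as a block (0.049) or without Flag-IP replicate 1 (0.030), and AAAS with the trends of GC content and length removed (0.036). NUP62CL, a relative of NUP62, stood at 271 ± 18.0 normalized counts in the Flag-IPs, against 293 ± 25.0 in the HA-IPs.

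The importin alpha family split in direction, with KPNA2 higher in the HA-IPs and KPNA3 higher in the Flag-IPs. These proteins are adaptors that bind the nuclear localization signal of a cargo and hand it to importin beta. KPNA2 (chr17:68035636-68047364) had 24049, 23640 and 24999 normalized counts in the Flag-IPs, against 29080, 29304 and 30390 in the HA-IPs. No Flag-IP reached any HA-IP, the log2 fold change was 0.29 ± 0.047 and the adjusted p of 0.0033 was the smallest among the members. KPNA3 (chr13:49699320-49792682) had 2269, 2113 and 1940 in the Flag-IPs, against 1813, 1699 and 1764 in the HA-IPs. Here every Flag-IP lay above every HA-IP. The log2 fold change was −0.26 ± 0.065 (adjusted p = 0.024), and the call held in 2 of the 6 fits that left out a library. KPNA4, its closest relative, had a log2 fold change of −0.11 with overlapping groups (adjusted p = 0.29), and KPNA1, KPNA5 and KPNA6 lay between 0.049 and 0.15 without passing. Per kilobase of transcript, KPNA2 was 22.6, 23.9 and 27.5 times as abundant as KPNA3 in the Flag-IPs and 34.2, 36.8 and 36.8 times in the HA-IPs. The ratio was higher in every HA-IP and adds no evidence to the calls of the genes themselves.

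Of the 11 import receptors of the importin beta type, 4 were higher in the HA-IPs and none in the Flag-IPs, with a median log2 fold change of 0.12. IPO7, an importer of ribosomal proteins and histones, had 13655, 12819 and 13577 normalized counts in the Flag-IPs, against 16119, 15284 and 16149 in the HA-IPs (0.25 ± 0.048, adjusted p = 0.0080). TNPO1, which imports RNA-binding proteins, had 16515, 15890 and 17669 against 19836, 19193 and 20027 (0.24 ± 0.051, adjusted p = 0.012). IPO5, another importer of ribosomal proteins, had 26042, 25708 and 26995 against 31205, 29190 and 30611 (0.21 ± 0.048, adjusted p = 0.017). In none of these did the groups overlap, and TNPO3, the importer of splicing factors, was higher by 0.16 ± 0.045 (adjusted p = 0.038). KPNB1, the partner of importin alpha and by counts the highest member, stood at 74921, 75806 and 81987 normalized counts in the Flag-IPs, against 85231, 87310 and 91091 in the HA-IPs. Its groups did not overlap, but its log2 fold change of 0.18 ± 0.056 missed the threshold (adjusted p = 0.057), whereas edgeR (0.047) and DESeq2 (0.012) put its adjusted p below it. IPO13, which carries cargo in both directions, had the lowest log2 fold change of the group, −0.073 (adjusted p = 0.51).

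Among the 7 exportins, 2 were higher in the HA-IPs. XPO1, the exporter of proteins with a leucine-rich export signal, had 15853, 15224 and 16349 normalized counts in the Flag-IPs, against 18666, 17983 and 18889 in the HA-IPs (0.23 ± 0.047, adjusted p = 0.011). XPO5, the exporter of microRNA precursors, had 12945, 12907 and 14069 against 15676, 14925 and 15740 (0.22 ± 0.051, adjusted p = 0.018). All HA-IPs exceeded all Flag-IPs for both. CSE1L, which returns importin alpha to the cytoplasm, stood at 13664 ± 163 in the Flag-IPs, against 14151 ± 621 in the HA-IPs, and its log2 fold change of 0.050 did not pass (adjusted p = 0.55). XPO6, the exporter of actin, was lowest of the group at −0.0055. RAN itself had 17515, 16131 and 15289 normalized counts in the Flag-IPs, against 14641, 14760 and 15364 in the HA-IPs. The HA-IPs lay mostly below the Flag-IPs but the groups overlapped, and the log2 fold change of −0.13 ± 0.055 did not pass (adjusted p = 0.16). With the trends of GC content and transcript length removed, KPNA3, KPNA4 and RAN were all called higher in the Flag-IPs, beside 16 members higher in the HA-IPs, and with quantile normalization KPNA3 and RAN were, beside 9. TPR and NUP214 were not among the 16, and NUP98, NUP214, TPR, IPO5, TNPO3, XPO1 and XPO5 were not among the 9.

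**Figure D2:**
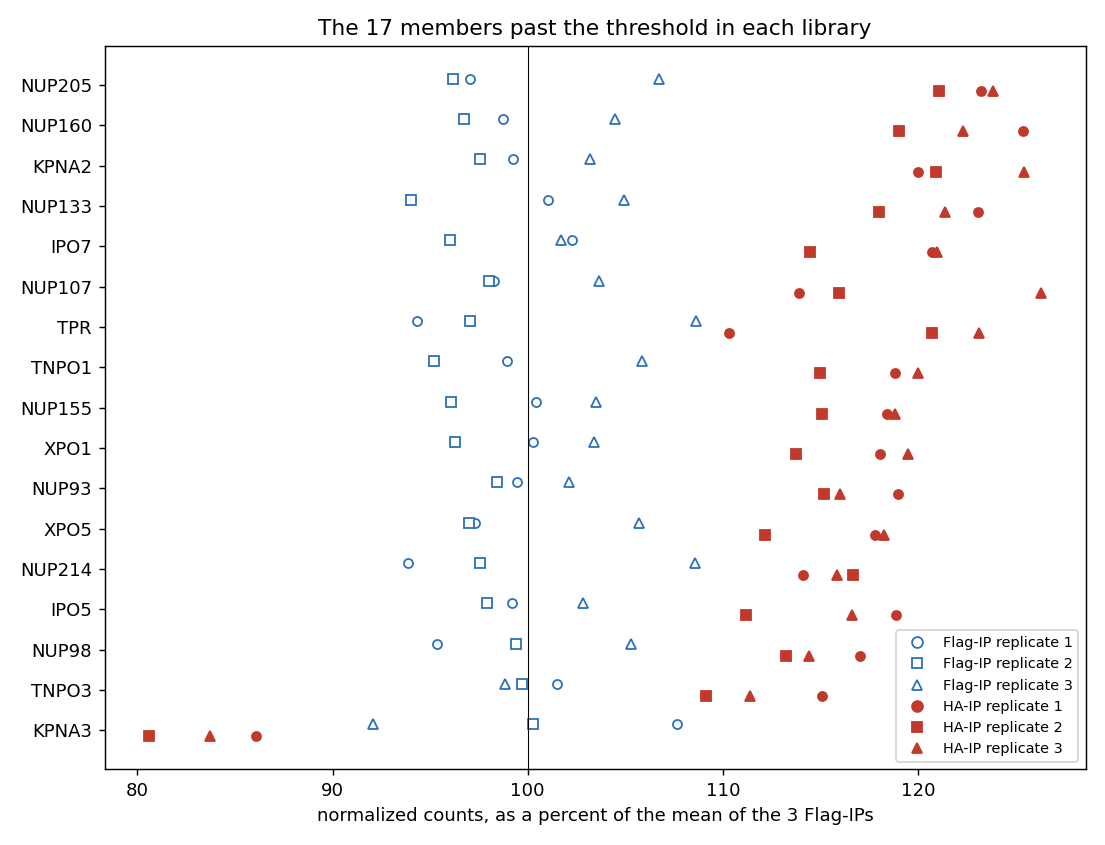
Normalized counts of the 17 members past the threshold in each library, as a percent of the mean of the 3 Flag-IPs (x axis), with open blue symbols for Flag-IPs and filled red symbols for HA-IPs. In 16 of the genes the HA-IPs lie to the right of the Flag-IPs, and in KPNA3 they lie to the left.

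Levels between genes were compared per kilobase of the canonical transcript. KPNB1 and KPNA2 led, with means of 13655 and 13612 normalized counts per kilobase over the 6 libraries, followed by RAN (6312), IPO5 (4714), CSE1L (3918), NUP210 (3520), XPO1 (3440) and NUP205 (3154). The lowest were KPNA5 (127), NUP62CL (160) and IPO4 (249). KPNA2 stood at 0.934 to 0.984 times the level of its partner KPNB1 in the Flag-IPs and at 1.02 to 1.05 times in the HA-IPs, and this change of order was not tested. The order rests on 1 canonical length per gene, 1977 nucleotides for KPNA2 and 6058 for KPNB1. In normalized counts KPNB1 was the higher of the pair in every library.

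**Figure D3:**
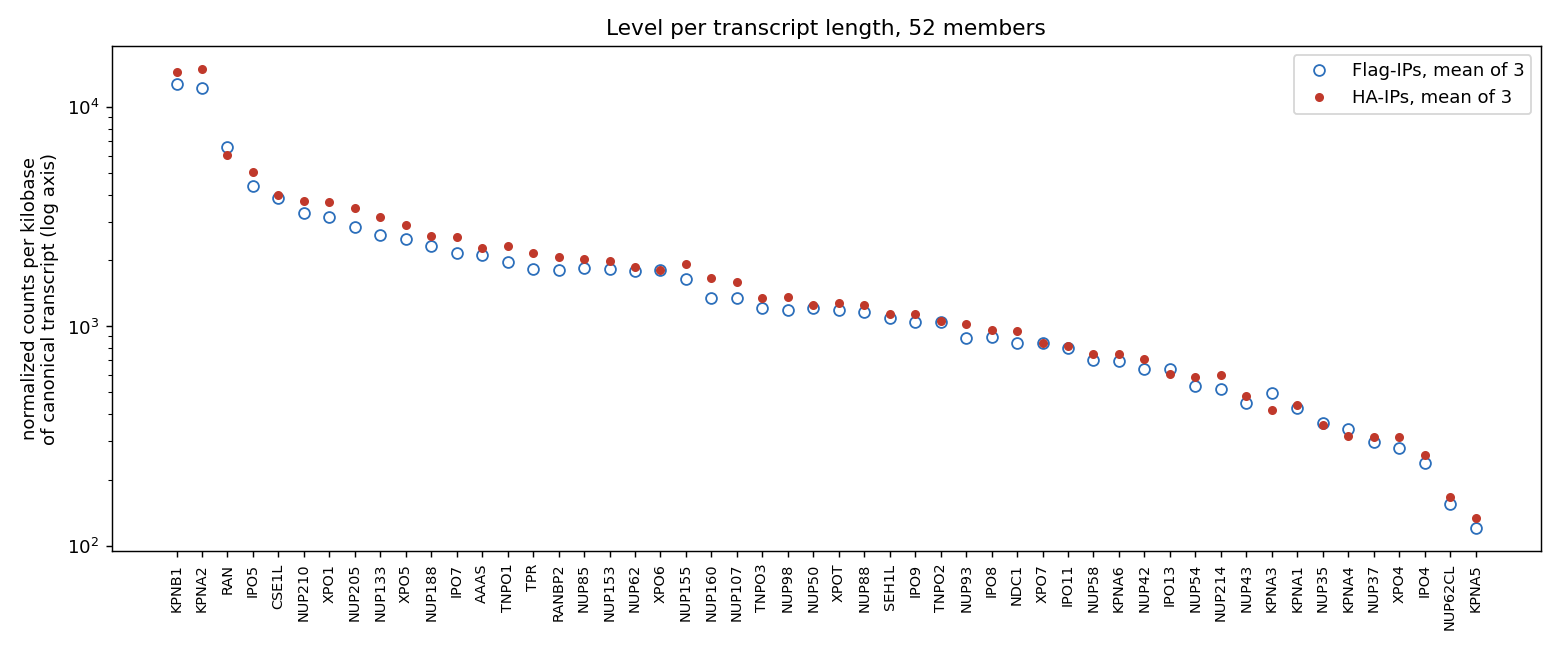
Mean normalized counts per kilobase of canonical transcript (y axis, log scale) of the 52 members in the Flag-IPs (open blue) and HA-IPs (filled red), ordered by level. Levels run from 127 for KPNA5 to 13655 for KPNB1 as means over all 6 libraries.

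Calls were found among the more abundant members, and the share of all genes called also rose with level. None of the 4 members with a mean under 1000 normalized counts was higher in the HA-IPs, against 1.08% of all genes at that level. Of the 19 between 1000 and 5000, 1 was, against 10.3% of all genes at that level. Between 5000 and 10000 it was 5 of 11 (45.5%) against 24.3% of all genes, and above 10000 it was 10 of 18 (55.6%) against 34.8%. From the lowest band to the highest, the median log2 fold change was 0.10, 0.096, 0.11 and 0.21 in the members. In all genes it was −0.052, 0.034, 0.086 and 0.14. Set against genes with a mean of at least 1000, the members' share was 33.3% (16 of 48) and the share of all genes 14.4%, with 7.42% of those genes higher in the Flag-IPs. Across the 52 members the log2 fold change went with the log2 mean at a Pearson's r of 0.44 and a Spearman's rho of 0.57, and with log2 transcript length at 0.29 and 0.42. Over all genes with an annotated length these were 0.21 and 0.23 for the mean and 0.19 and 0.24 for the length, and over those with a mean of at least 1000, as 48 of the members have, 0.12 and 0.24 for the mean and 0.26 and 0.28 for the length. These correlations are across genes, which share the 6 libraries and are not independent replicates. Members higher in the HA-IPs had a median transcript length of 6188 nucleotides and the members that did not pass one of 4537, and the part of length and level in the differences was not tested beyond the removal of the length and GC trends.

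**Figure D4:**
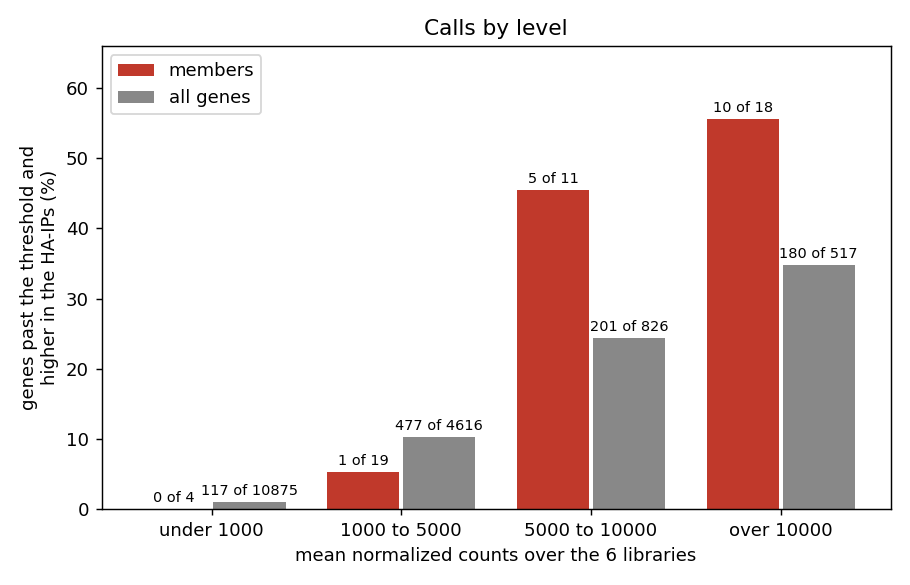
Percent of genes past the threshold and higher in the HA-IPs (y axis) by mean normalized counts over the 6 libraries (x axis), for the members (red) and all genes (grey), with the counts above the bars. The members' share is above that of all genes in the bands from 5000 upward and below it in the bands under 5000.

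Promoters, taken from 250 bases before to 50 after the RefSeq start, were found for 47 of the 52 members, 58 promoters in all. Both strands were searched. The CHR motif (TTTGAA or TTCGAA) was in 25.9% of the members' promoters, against 11.8% of the 17148 promoters of genes in the table and 16.4% of all 35116. CCAAT was in 44.8% (34.3% and 34.6%), the core of the NRF1 site TGCGCA in 13.8% (11.5% and 8.24%), and an E2F motif (TTGGCGC, or its variant TTCGCGC, or the form TTCCCGC shown above, or the form TTGCCGC) in 27.6% (18.6% and 13.0%). By gene, the CHR motif was present in 5 of the 16 members higher in the HA-IPs and in 8 of the other 31 with a promoter, CCAAT in 10 of 16 and 12 of 31, an E2F motif in 5 of 16 and 10 of 31, and the NRF1 core in 3 of 16 and 5 of 31. Several promoters were listed for 6 of the 16 and 4 of the 31, which gives the first more windows to match. A match describes the letters in the window and is not a binding site, and these shares were not tested.

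Other genes of nuclear transport were listed by function, and 60 of 62 were measured. Calls toward the HA-IPs numbered 11 (18.3%), 3 were higher in the Flag-IPs, and the median log2 fold change was 0.056. Over all genes the called shares were 5.79% toward the HA-IPs and 7.10% toward the Flag-IPs. The median level of the 60 was 2304 normalized counts. In the band from 1000 to 5000, 10.3% of all genes were called toward the HA-IPs, with 0.034 as the band's median log2 fold change. The 60 were not matched to other genes for level. Among 7 further pore genes, RAE1, an mRNA export factor that binds NUP98, was higher in the HA-IPs by 0.33 ± 0.051 (adjusted p = 0.0028), a call that held in all 6 fits that left out a library, and AHCTF1, which seeds pore assembly on chromatin after mitosis, by 0.25 ± 0.056 (adjusted p = 0.014). Of 15 genes of the nuclear envelope 6 were higher in the HA-IPs, namely LMNA, LMNB1, LEMD2, LEMD3, SYNE1 and TMPO, with LEMD3, an inner membrane protein, at 0.36 ± 0.065 (adjusted p = 0.0058). Among the 9 genes listed under the RAN cycle, which include RAN-binding proteins, only RCC2 passed, at 0.19 (adjusted p = 0.024). RCC1 (0.080, adjusted p = 0.29) and RANGAP1 (0.10, adjusted p = 0.20) did not pass. RANBP1, a RAN-GTP binding protein, varied from 4413 to 8264 among the Flag-IPs and did not pass either (adjusted p = 0.15). Among 18 genes of mRNA export, THOC2 (0.16) and MCM3AP (0.27) were higher in the HA-IPs. THOC7 (−0.92), ENY2 (−0.76) and DDX39B (−0.16) were higher in the Flag-IPs, with THOC7, a subunit of the THO complex, at 505, 377 and 337 normalized counts in the Flag-IPs, against 193, 208 and 236 in the HA-IPs. The calls of DDX39B, THOC2, LMNB1 and SYNE1 held in 1 of the 6 fits that left out a library. The 7 other receptors and the 4 SUMO pathway genes of the pore held no called gene, and all 4 of the latter had negative log2 fold changes.

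Reads of overlapping genes could add to some values. Exons of 13 members overlap those of another gene in the table, among them the called members XPO1 (USP34-DT, opposite strand), XPO5 (POLR1C, 129 bases, opposite strand) and NUP98 (CHRNA10 on the same strand, PGAP2 on the opposite). Whether the counting used strand is not given in the sources used here.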

How the data were processed

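RNA-seq was analysed from 3 Flag-IPs and 3 HA-IPs. Per the submitters' processing notes and the study's methods, poly(A) RNA was read from both ends (150 bp), trimmed with Trimmomatic 0.36, mapped to GRCh38 with STAR 2.5.2b and counted with featureCounts (Subread 1.5.2). The authors deposited a normalized signal, read counts divided by a size factor per library, for genes with at least 10 reads in 3 libraries. The deposited log2 fold changes and adjusted p-values of the authors' own comparison were not used. Dividing by the value of 1 read recovered whole reads for 100% of values (tolerance 0.05 reads).

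Groups were compared with limma 3.58.1 (R 4.3.3, variance trend) on log2(normalized counts + 1) over all 16834 genes, because the values are not raw counts. The recovered reads were tested with edgeR 4.0.16 (quasi-likelihood) and DESeq2 1.42.0 as alternatives. The tests were tried on simulated data whose changes were larger than those of the members. That trial does not cover differences of the size described here. Lengths, coordinates and GC content came from GENCODE 44. Removing their trends used natural splines of 5 degrees of freedom per library, with MASS 7.3.60.0.1. With 3 against 3 libraries an exact permutation test cannot go below 0.1. The libraries held 23174532 to 44134833 reads on these genes, and the lowest count of a member in any library was 217 reads.

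Members and lists were chosen with earlier results of these data known. Symbols ending in a pseudogene suffix were to be left out. Named are the members past the threshold, the highest and lowest log2 fold change in each role group of at least 3, and KPNA2, KPNB1, XPO1, CSE1L, RAN, NUP98, TPR and RANBP2. Values per library are given for the 12 called members with the smallest p, RAN and KPNA2. Those of KPNA3, KPNB1, RANBP2 and THOC7, and the other names, were added after values were seen. Genes outside the table were not analysed here.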

Additional observations from a re-analysis of the deposited data

How the results depend on the processing

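The 16 members called higher in the HA-IPs numbered 16 with pseudocounts of 0.1 and 10, a mean of at least 50 or the same upper quartile, 13 with the same total per library, 17 with edgeR and 19 with DESeq2. They numbered 9 with quantile normalization, 7 at an adjusted p of at most 0.01 and 0 with limma without trend, where their adjusted p ran from 0.076 to 0.17 together with KPNA3's. With one library left out they numbered 3 to 21. The share of all genes called at an adjusted p of at most 0.01 was not computed. Counts at that threshold, here and below, therefore have no background to be read against. The 1 member called higher in the Flag-IPs became 2 with quantile normalization, 3 with GC and length trends removed, 0 at an adjusted p of at most 0.01 or without trend, and 0 to 2 with one library left out. Over all genes, 975 were called higher and 1196 lower in the HA-IPs, but 471 and 1576 with the same total per library, 704 and 1004 with quantile normalization, 6 and 182 without trend, 103 and 517 without Flag-IP replicate 2, 225 and 555 without HA-IP replicate 1, 268 and 632 without HA-IP replicate 2, 319 and 897 without HA-IP replicate 3, and 1550 and 1509 without Flag-IP replicate 3. The other genes of nuclear transport, 11 and 3, became 6 with quantile normalization, 7 and 5 with the same total, 0 and 0 without trend, 3 and 1 at an adjusted p of at most 0.01, and 2 to 16 and 1 to 6 with one library left out. The cause of these changes was not tested.

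The members' median of 0.13 became 0.088 with quantile normalization and 0.078 with the same total, where the median of all genes moved from −0.0049 to 0.044 and −0.057, and 0.12 to 0.14 with one library left out. Role group medians, in the order outer ring, inner ring, central channel, cytoplasmic face, basket, membrane anchors, importin alpha, import receptors and exportins, were 0.085, 0.17, 0.043, 0.12, 0.075, 0.12, 0.027, 0.071 and 0.052 with the same total. From the inner ring on they were 0.14, 0.072, 0.12, 0.058, 0.084, 0.044, 0.076 and 0.060 with quantile normalization. With GC and length trends removed, with or without the block, the inner ring had 0.16, the channel 0.066, the cytoplasmic face 0.14, the basket 0.080, importin alpha 0.021 and exportins 0.047. With one library left out the medians ran, in the same order, from 0.13 to 0.18, 0.20 to 0.24, 0.063 to 0.15, 0.14 to 0.22, 0.10 to 0.14, 0.14 to 0.20, 0.046 to 0.11, 0.11 to 0.15 and 0.075 to 0.14.

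No called member changed sign under any alternative. Of the 52, 10 that did not pass changed sign. NUP62 (−0.014 and −0.0062), CSE1L (−0.046 and −0.0032) and NUP50 (−0.013 and −0.0062) did so with quantile normalization and the same total. NUP35 came to 0.013 with quantile normalization, 0.047 with GC and length trends removed, with or without the block, and ran from −0.12 to 0.033 with one library left out, the highest without Flag-IP replicate 1. XPO6 ran from −0.038 to 0.030, above 0 without Flag-IP replicate 3 (0.028) or HA-IP replicate 3. IPO11 (−0.028 to −0.0014) and TNPO2 (−0.053 to −0.020) changed under 5 and 6 alternatives, KPNA1 (−0.011 to −0.0037) and XPO7 (0.0044 to 0.022) under 3 each, and NUP37 (−0.021) without Flag-IP replicate 3.

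The values gave no sign that the replicate numbers pair the libraries. Deviations of same-numbered libraries from their group means correlated at −0.156, 0.0306 and −0.31 over 13141 genes. Only Flag-IP replicate 2 correlated best with its own number, and the highest correlation, 0.302, was between Flag-IP replicate 1 and HA-IP replicate 3. With 3 libraries per group this check cannot exclude pairing, on which the labels are silent. With the replicate number as a block, 17 members were called higher in the HA-IPs, 15 of them also called without it, and 1 higher in the Flag-IPs. With the block and the GC and length trends removed these were 20 and 1, against 1004 and 1158 of 16683 genes. The planned protein features were not run, and role medians have no values at another threshold or without trend, which leave fold changes as they are.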
